A study of Homo sapiens with 4 samples.

Results

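The insulin-like growth factor (IGF) axis was described here through 10 genes, namely the binding proteins IGFBP2, IGFBP3, IGFBP4, IGFBP5, IGFBP6 and IGFBP7, the receptors IGF1R and INSR, and the adaptors IRS1 and IRS2. They were taken from the 19775 genes that had a probe set of their own on the array, and every probe set annotated to 1 of them was used, 29 in all. No probe set of theirs was shared with another gene. The cells were SKOV3, an established line from a human ovarian carcinoma, and the arrays compared control cells without rhSTIP1 (2 arrays) with cells given rhSTIP1 (2 arrays), read as the recombinant form of the human cochaperone STIP1. Neither the dose nor the length of treatment is stated in the sources used here. The labels number the arrays 1 and 2 in each group without saying whether they came from separate cultures, so every p-value measures only the spread between these arrays, which may be technical.

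IGF1 and IGF2 are secreted growth factors that bind IGF1R at the cell surface, and insulin binds the closely related INSR. Both receptors are tyrosine kinases that phosphorylate IRS adaptors, which in turn recruit PI3-kinase and lead to AKT, and AKT keeps FOXO transcription factors out of the nucleus. The IGFBPs are secreted proteins that hold IGFs outside the cell, and proteases such as PAPPA release the growth factor by cutting them. In ovarian carcinoma the axis is known mainly as a growth and survival signal.

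The series title names the SMAD1/5 pathway (spelled SAMD1/5 there), so the promoters were searched for GGCGCC, a GC-rich element that SMAD1/5 can bind, and for GTAAACA, an element of the FOXO factors that lie downstream of IRS adaptors. Both strands were searched over the 250 bases before each start site in RefSeq (GRCh38.p14), and the motifs do not overlap each other. Of the 10 genes 9 had a promoter in that table, with 11 start sites, and IGFBP7 had none. GGCGCC occurred before IGFBP4, IGF1R, INSR, IRS1 and IRS2, thus in 5 of 11 windows, against 16.4% of 35116 windows in the whole table. Those 5 windows were 71.6% to 81.2% G and C, and the share over all windows was not matched for this. Several of the 11 windows belonged to IGFBP2 alone. GTAAACA occurred before IGFBP6 alone among the 9 genes, against 2.98% of all windows. A match describes the letters of the window and shows no binding. The windows of INSR and IGFBP5 are printed because these were the tested genes whose groups did not overlap on their brightest probe sets, and that of IGFBP6 because it holds the FOXO element. Capitals mark GGCGCC in INSR and GTAAACA in IGFBP6, and IGFBP5 held neither. The windows are chr19:7294415-7294664 (minus strand) for INSR, chr2:216695550-216695799 (minus strand) for IGFBP5 and chr12:53097417-53097666 (plus strand) for IGFBP6.
INSR: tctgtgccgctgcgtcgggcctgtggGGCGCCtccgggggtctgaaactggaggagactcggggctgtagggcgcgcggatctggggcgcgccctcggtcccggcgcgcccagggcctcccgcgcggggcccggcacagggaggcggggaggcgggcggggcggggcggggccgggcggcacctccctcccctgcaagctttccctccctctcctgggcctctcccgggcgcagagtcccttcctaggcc
IGFBP5: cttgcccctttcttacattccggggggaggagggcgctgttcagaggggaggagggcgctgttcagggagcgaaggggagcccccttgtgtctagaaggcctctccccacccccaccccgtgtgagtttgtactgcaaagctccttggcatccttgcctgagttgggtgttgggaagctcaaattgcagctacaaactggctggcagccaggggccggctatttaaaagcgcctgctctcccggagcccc
IGFBP6: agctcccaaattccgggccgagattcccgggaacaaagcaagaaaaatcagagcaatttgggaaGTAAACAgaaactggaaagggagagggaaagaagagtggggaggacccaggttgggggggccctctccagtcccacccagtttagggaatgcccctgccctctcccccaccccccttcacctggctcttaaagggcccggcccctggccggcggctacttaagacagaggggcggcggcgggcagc
In INSR the element began 224 bases before the start site, and in IGFBP6 186 bases before it.

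The values are MAS5 signals on a linear scale, which rise with the amount of transcript but cannot be set against each other between probe sets. Median signals ran from 66.0 to 79.2 over the 4 arrays, and Pearson correlations between arrays lay between 0.952 and 0.979 over the tested genes, although genes are not replicates. The ACTB 3′ to 5′ ratio, which rises with RNA degradation, was between 2.45 and 2.74 on 3 arrays and 8.79 on rhSTIP1 array 2. That of GAPDH was between 0.987 and 1.16 on those 3 arrays and 1.32 on rhSTIP1 array 2. The 8 epithelial and ovarian markers (KRT7, KRT8, KRT18, KRT19, ERBB2, EPCAM, PAX8 and CDH1) all reached the level for testing, with summed signals of 50684 to 57222. CDH1 alone ran from 299 on control array 1 to 2110 on rhSTIP1 array 2. None of the 4 leukocyte markers with a usable probe set did, and their sums were 88.6 to 192. Of the endothelial markers 1 of 5 did (sums of 227 to 361), and of the fibroblast markers 3 of 6 (sums of 327 to 603). Each sum is led by the brightest probe sets of its list and is read across arrays, not between lists.

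The arrays first answer whether transcripts of the IGF axis differed with rhSTIP1, and 0 of 9 tested members passed. The brightest probe set by mean signal stood for each gene, which was tested with limma on log2(signal + 16) where that mean reached 69.4, which IGFBP4 alone did not. The adjusted p was 0.999 for each of the 9, and over all genes 0% (0 of 12296) passed at 0.05. At an unadjusted p under 0.05 there was 1 member, IGFBP5, against 3.68% of all tested genes. The groups did not overlap and lay at least 1.5-fold apart for 2 of the 9, IGFBP5 and INSR, both higher with rhSTIP1. Over all tested genes 1.9% were higher and 3.79% lower by this criterion. The median log2 fold change of the 9 was 0.19, with 6 above 0 and 3 below, beside a median of 0.02 over all tested genes. Without control array 1, or without rhSTIP1 array 2, there was 1 such member, without control array 2 there were 6 and without rhSTIP1 array 1 there were 7. With 2 arrays against 2, the smallest two-sided p of an exact permutation test on 1 gene is 0.333.

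**Figure D1:**
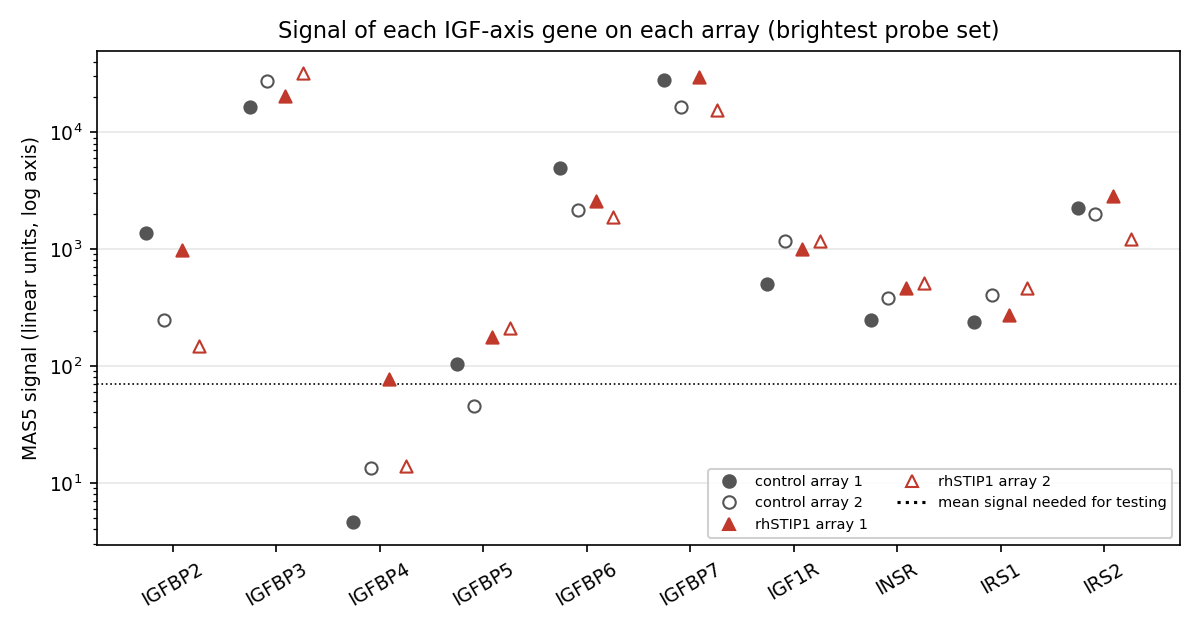
MAS5 signal (log axis) of the brightest probe set of each of the 10 IGF-axis genes on each array, with control arrays as circles, rhSTIP1 arrays as triangles, array 1 filled and array 2 open, and the mean signal needed for testing (69.4) as a dotted line. Both rhSTIP1 points lie above both control points for IGFBP5, INSR and the dim IGFBP4, while the IGFBP2 points lie in pairs by array number (1372 and 992 on array 1, 247 and 147 on array 2).

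IGFBP5, a binding protein that also attaches to extracellular matrix, gave signals of 103 and 45.8 on the control arrays, against 177 and 213 on the treated arrays on its brightest probe set. Both treated arrays lay above both controls. The log2 fold change was 1.29 ± 0.42 (SE), or 2.45-fold (limma, unadjusted p = 0.0155, adjusted p = 0.999), and 186 of the other 12295 tested genes had a smaller p. Leaving out control array 2 gave 0.82, and leaving out control array 1 gave 1.76. The other 5 IGFBP5 probe sets had signals between 0.992 and 79.4 and mean signals below the level for testing, and in each of them the groups overlapped. With the mean of all 6 probe sets on the log2 scale the fold change was 0.29. The higher IGFBP5 value therefore rests on 1 dim probe set.

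IGFBP2, a binding protein often found at high levels in ovarian tumours, had signals of 1372 and 247 on the control arrays, against 992 and 147 on the treated arrays. The groups overlapped, and array 2 was far below array 1 in each. The log2 fold change was −0.57 ± 0.95, and it turned to 0.63 without control array 1 and to 0.74 without rhSTIP1 array 2. IGFBP6, which prefers IGF2 over IGF1, had signals of 4979 and 2175 on the control arrays, against 2596 and 1868 on the treated arrays. The treated arrays lay below control array 1, but rhSTIP1 array 1 lay above control array 2. Its log2 fold change was −0.58 ± 0.39, or 0.02 without control array 1 and −1.17 without control array 2.

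IGFBP3, the main IGF carrier of the blood, was bright on both of its probe sets. The brighter one read 16352 and 27449 on the control arrays, against 20556 and 31974 on the treated arrays, a log2 fold change of 0.27 ± 0.29. The other read 4405 and 9758 on the control arrays, against 5217 and 11554 on the treated arrays, a log2 fold change of 0.24 ± 0.45. In both probe sets array 2 of each group was above both arrays numbered 1. Without control array 1 the log2 fold change of the brighter one was −0.10, and without rhSTIP1 array 2 it was −0.04.

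IGFBP7, a secreted relative that binds IGFs only weakly, read 27892 and 16350 on the control arrays, against 29697 and 15543 on the treated arrays on its brightest probe set. The group difference was close to 0, at 0.01 ± 0.34, and −0.11 with quantile normalization. Another bright probe set gave 25356 and 15123 on the control arrays, against 25261 and 17667 on the treated arrays, a log2 fold change of 0.11 ± 0.27. The third, much dimmer, gave 149 and 93.0 on the control arrays, against 311 and 139 on the treated arrays, a log2 fold change of 0.75 ± 0.43. In all 3 the groups overlapped and array 2 lay below array 1 of the same group. IGFBP4, which holds IGFs until PAPPA cuts it, was too dim to test. It read 4.59 and 13.5 on the control arrays, against 78.1 and 14.0 on the treated arrays, so that only rhSTIP1 array 1 stood clearly above the rest.

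INSR, the insulin receptor, was the receptor with the smaller p. Its brightest probe set read 249 and 379 on the control arrays, against 462 and 509 on the treated arrays. Both treated arrays lay above both controls, and the log2 fold change was 0.63 ± 0.29, or 1.55-fold (limma, unadjusted p = 0.0632, adjusted p = 0.999). Leaving out control array 1 gave 0.34, and leaving out control array 2 gave 0.91. Another INSR probe set read 195 and 233 on the control arrays, against 336 and 311 on the treated arrays (log2 fold change 0.56 ± 0.28), and the third read 167 and 234 on the control arrays, against 306 and 247 on the treated arrays (0.44 ± 0.31). In those 2 the groups also did not overlap. The fourth tested one overlapped, at 97.2 and 135 on the control arrays, against 148 and 95.6 on the treated arrays. The fifth, too dim to test, went the other way, at 74.8 and 61.7 on the control arrays, against 42.3 and 12.9 on the treated arrays. Averaged over all 5 the log2 fold change was 0.13.

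IGF1R, the receptor for IGF1 and IGF2, read 507 and 1161.5 on the control arrays, against 1007 and 1179 on the treated arrays on its brightest probe set. Control array 1 stood below the other 3 arrays, which lay close together. The log2 fold change was 0.49 ± 0.38, but −0.09 without control array 1 and 1.08 without control array 2. Another probe set of IGF1R read 525 and 454 on the control arrays, against 571 and 530 on the treated arrays, a log2 fold change of 0.17 ± 0.26 with no overlap. The third read 92.9 and 142 on the control arrays, against 94.3 and 145 on the treated arrays, a log2 fold change of 0.02 ± 0.38. The low value of control array 1 on the brightest probe set was thus not found on the second one. The other 2 IGF1R probe sets had signals between 7.48 and 73.7 and were not tested.

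IRS1 and IRS2 carry the receptor signal to PI3-kinase. IRS1 read 240 and 404 on the control arrays, against 274 and 463 on the treated arrays, and the log2 fold change was 0.19 ± 0.36. The arrays numbered 2 were above those numbered 1 in both groups, and the fold change was −0.17 without control array 1 and also −0.17 without rhSTIP1 array 2. A dimmer IRS1 probe set read 70.9 and 71.8 on the control arrays, against 75.0 and 99.0 on the treated arrays, 0.23 ± 0.38. IRS2 read 2238 and 2014 on the control arrays, against 2827 and 1227 on the treated arrays, so that the rhSTIP1 arrays lay on either side of the controls. Its log2 fold change was −0.19 ± 0.38, but 0.41 without rhSTIP1 array 2. The second IRS2 probe set had the same order of arrays, at 807 and 727 on the control arrays, against 1179 and 550 on the treated arrays (0.07 ± 0.37). The array with the lowest IRS2 signals was rhSTIP1 array 2, whose ACTB ratio was 8.79 and GAPDH ratio 1.32. On the brightest probe sets this array was also lowest for IGFBP2, IGFBP6 and IGFBP7, and highest for IGFBP3, IGFBP5, IGF1R, INSR and IRS1. The part of RNA quality in any of these values was not tested.

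**Figure D2:**
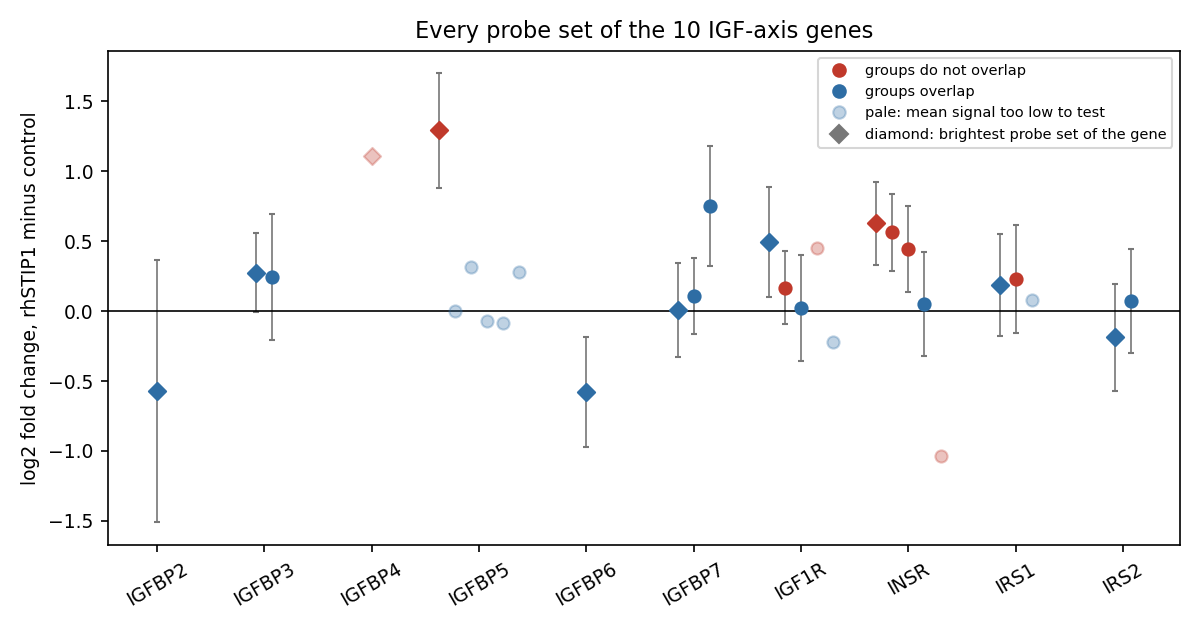
Log2 fold change of rhSTIP1 over control for all 29 probe sets of the 10 genes, with the standard error from the fit over all probe sets for the 19 that were tested and pale symbols for the 10 that were not, red where the groups did not overlap and blue where they did. The tested probe sets of INSR lie between 0.05 and 0.63, and IGFBP5 has 1 tested probe set at 1.29 and 5 pale ones between −0.08 and 0.31.

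By probe set, 19 of the 29 reached the level for testing and 0 of 19 passed limma's test over 27307 probe sets, of which 0% passed. At an unadjusted p under 0.05 there was 1 of the 19, the IGFBP5 probe set, against 3.22% of all tested probe sets. The groups did not overlap for 6 of the 19, all higher with rhSTIP1, where 12.8% of all tested probe sets were apart and higher and 15.4% were apart and lower. Of the 6, 3 belonged to INSR and 1 each to IGFBP5, IGF1R and IRS1. Probe sets of a gene share its transcript and are not independent of each other.

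The arrays of a group differed by more than the groups did for 7 of the 9 tested members in at least 1 group, where 81.9% of all tested genes did, and for 4 of the 9 in both groups, where 48.4% did. These shares were near those of all tested genes. In the controls 7 of the 9 tested members differed by at least 1.5-fold between array 1 and array 2, where 19.8% of all tested genes did. In the rhSTIP1 group 5 of the 9 did, where 20.2% of all tested genes did. The median size of the difference between arrays was 0.77 in the controls and 0.64 with rhSTIP1 on the log2 scale, against 0.28 and 0.30 over all tested genes. The median size of the group difference was 0.49 for the members and 0.17 for all tested genes. With 1 array on each side these array differences have no test.

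On their brightest probe sets IGFBP2, IGFBP3, IGFBP7 and IRS1 differed by at least 1.5-fold in the same direction in both groups. That makes 4 of 9, where 5.87% of all tested genes did so. IGFBP2 moved furthest, with array 2 below array 1 by 5.28-fold in the controls and by 6.17-fold with rhSTIP1. Of the other 12295 tested genes 27 differed more between the control arrays and 10 more between the rhSTIP1 arrays, and 0 were lower on array 2 by as much in both groups. IGFBP7 was also lower on array 2, by 1.71-fold and 1.91-fold. IGFBP3 was higher on array 2, by 1.68-fold and 1.56-fold, and IRS1 by 1.64-fold and 1.65-fold. The dimmer tested IRS1 probe set had log2 differences of only 0.02 in the controls and 0.34 with rhSTIP1. Its untested probe set had 0.17 and −0.37. With the mean of all IRS1 probe sets they were 0.30 in the controls and 0.23 with rhSTIP1, under 1.5-fold in both groups. With median centring, which moves the median difference between the control arrays over all tested genes from 0.03 to −0.18, the control differences of IGFBP3 (0.53) and IRS1 (0.50) were under 1.5-fold. Summed fibroblast markers were also lower on array 2, at 603 and 327 on the control arrays, against 565 and 364 on the treated arrays. COL1A1 read 345, 56.2, 286 and 146 in that order. Its fall between the control arrays was larger than that of the sum. COL1A2, LUM and PDGFRB were also lower on array 2 in both groups. DCN was higher on control array 2 (35.1 and 121) and lower on rhSTIP1 array 2 (103 and 70.1). COL3A1 was higher on array 2 in both, at 23.5 and 35.3 on the control arrays, against 5.85 and 26.5 on the treated arrays. COL3A1, LUM and PDGFRB were too dim to test. The epithelial marker CDH1 was higher on array 2, at 299 and 1355 on the control arrays, against 521 and 2110 on the treated arrays. KRT19 was lower on array 2, at 6515 and 3123 on the control arrays, against 4534 and 3059 on the treated arrays. CDH1 and KRT19 were chosen after their values were seen. Over all 8 epithelial markers the median size of the log2 array difference was 0.13 in the controls and 0.41 with rhSTIP1. The part of these markers in the IGFBP values was not tested.

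In the other members the arrays differed in 1 group more than in the other, on their brightest probe sets. IGF1R was 2.25-fold higher on control array 2 than on control array 1, and 1.17-fold higher on rhSTIP1 array 2 than on rhSTIP1 array 1. IGFBP6 was 2.28-fold lower on control array 2, against 1.39-fold lower on rhSTIP1 array 2. IGFBP5 was 1.92-fold lower on control array 2 and 1.18-fold higher on rhSTIP1 array 2. IRS2 was close on the control arrays, 1.11-fold, and 2.29-fold lower on rhSTIP1 array 2. INSR was higher on array 2 on its brightest probe set, with log2 differences of 0.57 in the controls and 0.14 with rhSTIP1. Its other probe sets were all lower on rhSTIP1 array 2, at −0.11, −0.29, −0.56 and, for the untested one, −1.01. With the mean of all INSR probe sets the log2 differences were 0.29 in the controls and −0.37 with rhSTIP1. Whether these differences themselves differ between groups was not tested.

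**Figure D3:**
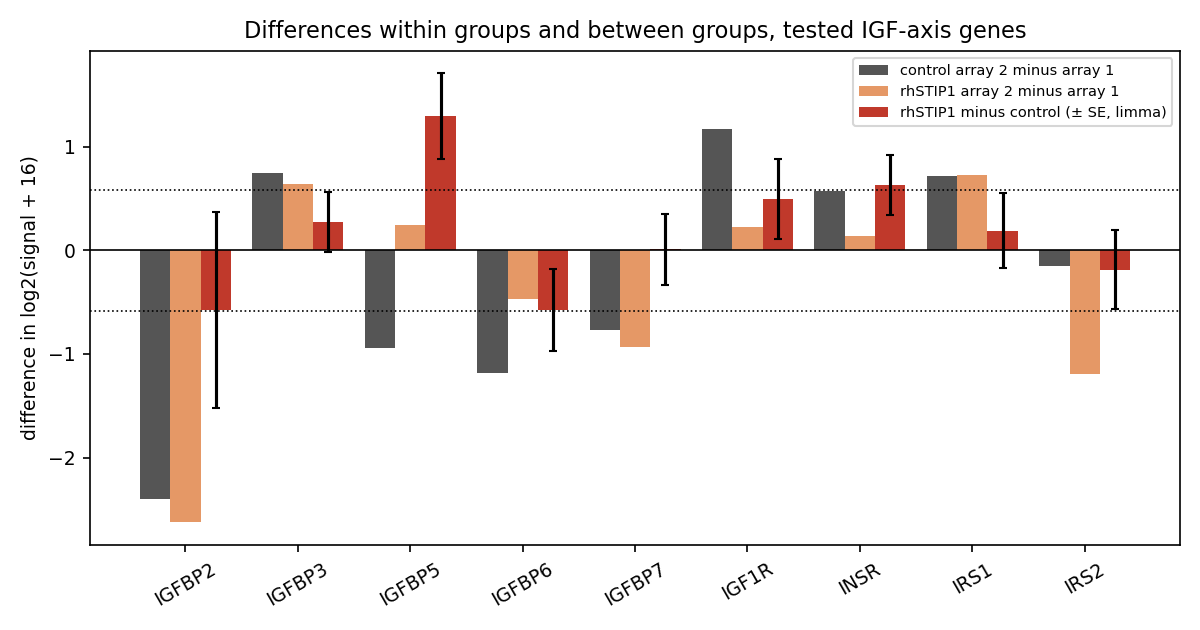
Differences in log2(signal + 16) for the 9 tested genes, as array 2 minus array 1 within the controls (grey), array 2 minus array 1 within rhSTIP1 (orange) and rhSTIP1 minus control with its standard error (red), with dotted lines at 1.5-fold. The grey and orange bars of IGFBP2 reach −2.40 and −2.62 while its red bar is at −0.57, and only IGFBP5 and INSR have a red bar longer than both of their others.

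Other genes around these members were read from lists of the pathway. Of the ligands, IGF1 and INS were too dim to test and IGF2 had no probe set of its own, so the only tested genes of that list were IGFBP1, IGFBPL1 and IGF2R. IGFBP1, a binding protein regulated by insulin in the liver, read 366 and 2010 on the control arrays, against 2174 and 1571 on the treated arrays. Control array 1 stood apart from the other 3, and the log2 fold change was 1.08 ± 0.67. IGFBPL1 read 181 and 105 on the control arrays, against 58.2 and 85.4 on the treated arrays (−0.84 ± 0.41). IGF2R, which clears IGF2, had 0.18 ± 0.26.

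Of 8 tested proteases of the IGFBPs and protease inhibitors, 4 had a fold change above 0 and 4 below, with a median of 0.13, and 0 had an unadjusted p under 0.05. PAPPA, the protease of IGFBP4, read 46.4 and 54.6 on the control arrays, against 95.4 and 99.2 on the treated arrays, 0.77 ± 0.39. Both of its control signals were under 69.4, so that it reached the level for testing only through the treated arrays, where it was high. PAPPA2 had 0.47 ± 0.33 and the serine protease HTRA1 had 0.28 ± 0.25, and in all 3 the groups did not overlap. ADAM12, another protease of the list, chosen after its values were seen, did not overlap in the other direction, at 174 and 179 on the control arrays, against 115 and 159 on the treated arrays. That makes 3 higher and 1 lower of 8, where 14% of all tested genes were apart and higher and 14.9% apart and lower. The 3 include PAPPA, which the filter kept only through its treated arrays. The IGF2 mRNA-binding proteins were close to 0, with IGF2BP2 at 0.03 ± 0.22 and IGF2BP3 at −0.16 ± 0.23.

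Among the 14 tested adaptors and inhibitors next to the receptors the median was −0.05, with 5 above 0 and 9 below. The suppressors of cytokine signalling SOCS1 and SOCS3, which also bind IRS proteins and target them for degradation, went in opposite directions. SOCS1 read 105 and 184 on the control arrays, against 541 and 252 on the treated arrays (1.31 ± 0.43, limma, unadjusted p = 0.0164, adjusted p = 0.999). SOCS3 read 448 and 506 on the control arrays, against 276 and 258 on the treated arrays (−0.80 ± 0.25, limma, unadjusted p = 0.0144, adjusted p = 0.991). PTPN1, a phosphatase that switches off the insulin receptor, had 0.34 ± 0.26.

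The 20 tested genes of the PI3-kinase, AKT and mTOR core had a median of 0.00, 10 above 0 and 10 below, and 0 had an unadjusted p under 0.05. The regulatory subunits PIK3R1 (−0.67 ± 0.32) and PIK3R3 (−0.77 ± 0.38) had the smallest p and were lower on both treated arrays. Of the 20 genes 2 were apart and higher and 4 apart and lower, where 14% and 14.9% of all tested genes were. PIK3R1 read 1699 and 998 on the control arrays, against 966 and 687 on the treated arrays. INPP4B, a lipid phosphatase that opposes the pathway, had 0.26 ± 0.27.

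FOXO factors and their target genes had a median of 0.05 over 15 tested members, 9 above 0 and 6 below. At an unadjusted p under 0.05 there were 4 of 15, 1 higher and 3 lower, where 3.68% of all tested genes were, and 0 passed over all genes (limma, adjusted p = 0.702 for the 3 with the smallest p). PDK4, which limits the use of glucose in mitochondria, read 210 and 389 on the control arrays, against 625 and 1121 on the treated arrays, a 2.82-fold difference (SE 0.38 on the log2 scale). CITED2, a transcriptional coregulator, read 1856 and 2186 on the control arrays, against 1020 and 782 on the treated arrays, −1.16 ± 0.25. TXNIP, an inhibitor of glucose uptake, had −0.68 ± 0.17, and the cell-cycle inhibitor CDKN1B, chosen after its values were seen, had −0.87 ± 0.35. The FOXO targets with the smallest p thus lay on both sides of 0, and FOXO1 itself read 1480 and 3722 on the control arrays, against 2954 and 3162 on the treated arrays, with control array 1 lowest as for IGFBP1 and IGF1R. FOXO1 was also chosen after its values were seen.

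**Figure D4:**
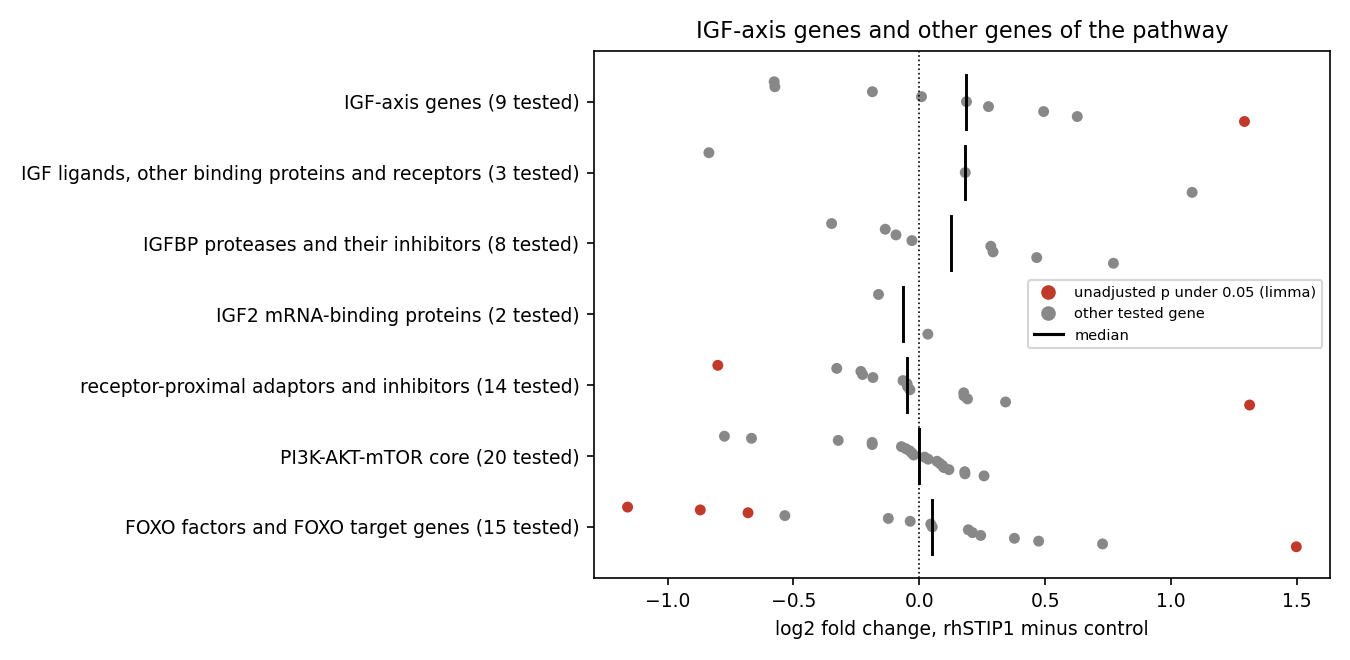
Log2 fold change of rhSTIP1 over control for the tested genes of the IGF axis and of 6 lists of other pathway genes, 1 point a gene, red where limma's unadjusted p was under 0.05, with a black line at each median. Medians lie between −0.06 and 0.19, and the points furthest from 0 are PDK4 (2.82-fold higher), SOCS1 at 1.31, IGFBP5 at 1.29 and CITED2 at −1.16.

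The genes whose pattern over the 4 arrays was nearest to IGFBP5, by Euclidean distance between centred log2 values, were USP5 (0.24), NPM2 (0.29) and PRR36 (0.30), and 7 tested genes lay within 0.5. Their signals were as dim, USP5 reading 90.5 and 52.8 on the control arrays, against 163 and 198 on the treated arrays. PRR36 read 88.7 and 27.7 on the control arrays, against 112 and 154 on the treated arrays. The mean of its control signals was under 69.4, so it reached the level for testing only through the treated arrays. The nearest to INSR were CTHRC1 (0.07), AKR1C3 (0.08) and UGDH (0.08), and 1151 tested genes lay within 0.5.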

How the data were processed

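RNA of 4 SKOV3 samples, 2 control and 2 rhSTIP1, was hybridised to Affymetrix arrays. Per the submitters' processing notes, the authors used MAS5 and Affymetrix Expression Console 1.1, and the deposited values are linear intensities. MAS5 works on 1 array at a time, and the table held no detection calls. After trimming 2% from each end the mean signal was 500.1 on every array. Signals of dim probe sets vary widely.

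The table held 54675 probe sets, 62 of them controls. Of the rest 41091 had 1 gene symbol, 1801 several and 11721 none. Genes were represented by their probe set of highest mean signal and tested where that mean reached 69.4, the median over probe sets, which kept 12296 of 19775 genes. rhSTIP1 was compared with control by lmFit and eBayes of limma 3.58.1 under R 4.3.3 on log2(signal + 16), with trend on, two-sided p-values and the adjustment of Benjamini and Hochberg. The ± values are its standard errors, from 2 residual and 5.56 prior degrees of freedom. The same was done for 27307 probe sets. Fold changes on this scale understate those of dim genes. The number of arrays limits the precision. The steps were tested on simulated data.

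The members and lists were chosen with earlier results of these data known. Named were all members, up to 3 genes of each pathway list with the smallest p and the 3 genes nearest to each of 2 members, of which locus codes and reading frame codes were passed over. Exceptions are marked as chosen later. Alternatives covered the pseudocount, scaling, filter, probe sets, eBayes settings, replicate number and each array left out.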

Additional observations from a re-analysis of the deposited data

How the results depend on the processing

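Without an array left out, the sign of each member's fold change was kept under every alternative but 1, IGFBP7 with quantile normalization (−0.11), and 0 of the 9 tested members passed in any of the settings. The number of genes called over all genes was 1 with the filter at the 70th percentile, 2 with robust eBayes and between 0 and 6 with an array left out, and between 1 and 7 over all probe sets with an array left out. The replicate number as a block called 247 genes and 261 probe sets. The array numbers are not stated to pair the samples. Over the tested genes the difference of array 2 from array 1 correlated at 0.36 between the groups, with only 2 pairs. With the block 6 of 9 members had an unadjusted p under 0.05, where 9.21% of all tested genes did, and 0 passed (limma, lowest adjusted p = 0.125, IGFBP5). The genes apart by at least 1.5-fold numbered 700, 2087 with no filter, 424 with the filter at the 70th percentile and 1062 to 1979 with an array left out. Their lower share was 66.6%, and 51.8% with median centring. Members apart by 1.5-fold numbered 1 with a pseudocount of 64 or the filter at the 70th percentile, which leaves out IGFBP5, 0 with all probe sets of a gene averaged and 1 to 7 with an array left out. With that mean 4 members differed by 1.5-fold between the control arrays. The array difference of IGFBP5 turned to 0.18 in the controls and to −0.74 with rhSTIP1.

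With an array left out, the lone array of a group is assumed to vary like those of the other group. Fold changes then ran from −1.89 to 0.74 for IGFBP2, −0.10 to 0.65 for IGFBP3, −1.17 to 0.018 for IGFBP6, −0.46 to 0.48 for IGFBP7, −0.091 to 1.08 for IGF1R, −0.17 to 0.55 for IRS1 and −0.78 to 0.41 for IRS2. Of the other 10 tested probe sets 5 changed sign, the second of IGFBP3 (−0.33 to 0.82), the other bright one of IGFBP7 (−0.26 to 0.48), the dimmest tested of IGF1R (−0.25 to 0.29) and of INSR (−0.23 to 0.33) and the second of IRS2 (−0.46 to 0.61). The cause of each change was not tested. Dim signals limit IGFBP4 and most IGFBP5 probe sets.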
